A study of Mus musculus with 6 samples.

Results

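The mitochondrial ribosomal protein genes were taken as every gene whose symbol is Mrpl or Mrps followed by a number, without the pseudogenes marked -ps. The rule found 78 genes among the 56941 genes of the count table, and all 78 were among the 18562 genes with enough counts to be tested. By textbook assignment 51 of them encode proteins of the large subunit and 26 encode proteins of the small subunit. The remaining gene, Mrps36, carries the family's name but encodes a component of the 2-oxoglutarate dehydrogenase complex. The counts came from bulk RNA sequencing of polyadenylated RNA from primary endothelial cells of mouse lung. Cells labelled FL (3 libraries) came from mice with a floxed Fundc1 gene, and cells labelled EC-KO (3 libraries) from an endothelial knockout of Fundc1, which encodes a mitophagy receptor of the outer mitochondrial membrane. All cells were isolated with magnetic beads, passed through dead cell removal and kept in endothelial medium with serum. The labels do not name the bead antibody, the Cre driver, the animals' age or sex, the time in culture or any pooling of animals. The sample titles use the abbreviation PAECs, whereas the protocol names lungs as the source. The labels do not say that the libraries of a group came from separate mice, and the p-values refer only to the variation among these libraries, some or all of it possibly technical.

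The mitochondrial ribosome translates the few membrane proteins of the respiratory chain and ATP synthase that are still encoded by mitochondrial DNA. Its RNAs, mt-Rnr1 in the small subunit and mt-Rnr2 in the large subunit, are transcribed inside the organelle, whereas all of its proteins are encoded in the nucleus, translated in the cytosol and imported. Many of the proteins have bacterial homologues, and the others were added to the ribosome during the evolution of mitochondria.

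The libraries held between 26658998 and 34306962 assigned counts. Fundc1 stood at 25.1, 32.0 and 30.7 CPM (the count of a gene relative to the scaled library total) in FL and at 14.1, 18.2 and 12.8 CPM in EC-KO, a log2 fold change of -0.96 ± 0.19 (SE; edgeR quasi-likelihood test, Benjamini-Hochberg adjusted p = 0.00796). For the markers below, fell and rose mean called at an adjusted p below 0.05 (edgeR), as were 13.5% of all tested genes in each direction. Of the 18 pan-endothelial markers 11 fell, and all 18 had negative log2 fold changes. Their summed level was 9274 to 12864 CPM in FL and 3847 to 7771 CPM in EC-KO. All 14 epithelial markers rose, from summed levels of 1854 to 4433 CPM to levels of 11594 to 17159 CPM. In addition, 7 of 10 fibroblast markers rose (386 to 488 against 789 to 1812 CPM) and 11 of 12 macrophage and monocyte markers fell (3554 to 5487 against 2092 to 2845 CPM). Of the smooth muscle and pericyte markers 8 of 10 fell (622 to 872 against 296 to 437 CPM), of the neutrophil and mast cell markers 5 of 8 (1496 to 2871 against 481 to 554 CPM) and of the lymphatic markers 4 of 6 (1845 to 2590 against 509 to 1028 CPM). Of the 9 lymphocyte markers 2 rose and 1 fell (323 to 489 against 241 to 602 CPM), and of the 8 proliferation markers 3 fell (248 to 296 against 248 to 280 CPM). EC-KO 2 stood apart within its group, with pan-endothelial markers at a median of -0.38 (log2, relative to the FL mean) against -1.46 and -1.45 in the other EC-KO libraries. The part of these shifts in the results below was not tested. In such bulk samples, fewer cells of a type and less RNA per cell cannot be told apart.

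Few mitochondrial ribosomal protein genes differed between the genotypes, and those that did went in both directions. Their summed level was 897, 875 and 904 CPM in the FL libraries and 1022, 935 and 872 CPM in the EC-KO libraries, so the groups overlapped. At an adjusted p below 0.05 (edgeR), 4 of the 78 genes were higher and 2 were lower in EC-KO, or 7.69%, whereas 27.1% of all tested genes were called, 13.5% in each direction. Among the 7736 tested genes whose mean level lay in the same range as that of the family (2.92 to 42.1 CPM), 32.2% were called, 15.6% higher and 16.6% lower. The levels of the 2 groups did not overlap for 28 of the 78 genes (35.9%), 14 in each direction, against 45.4% of all tested genes and 50.1% of those in the same range of levels. At an unadjusted p below 0.05 (edgeR), 16 of the 78 genes (20.5%) passed, against 40.6% of all tested genes. No test of these shares between the family and other genes was made.

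The log2 fold changes of the family were narrowly spread around a median of 0.06, and the median of all tested genes was 0.03. The middle 50% of the family lay between -0.21 and 0.25, compared with -0.45 to 0.56 for all tested genes. Changes smaller than 0.5 in size were found for 63 of the 78 genes (80.8%), against 49.8% of all tested genes, and 1 gene, Mrps22, exceeded 1. The median standard error was 0.21 in the family and 0.26 over all tested genes. Depth was adequate for these genes, with 70 to 1639 counts per gene and library. Across the 78 genes the fold change had a Pearson correlation of 0.18 with mean level and of 0.07 with exon length, given as a description since the genes share the same 6 libraries.

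**Figure D1:**
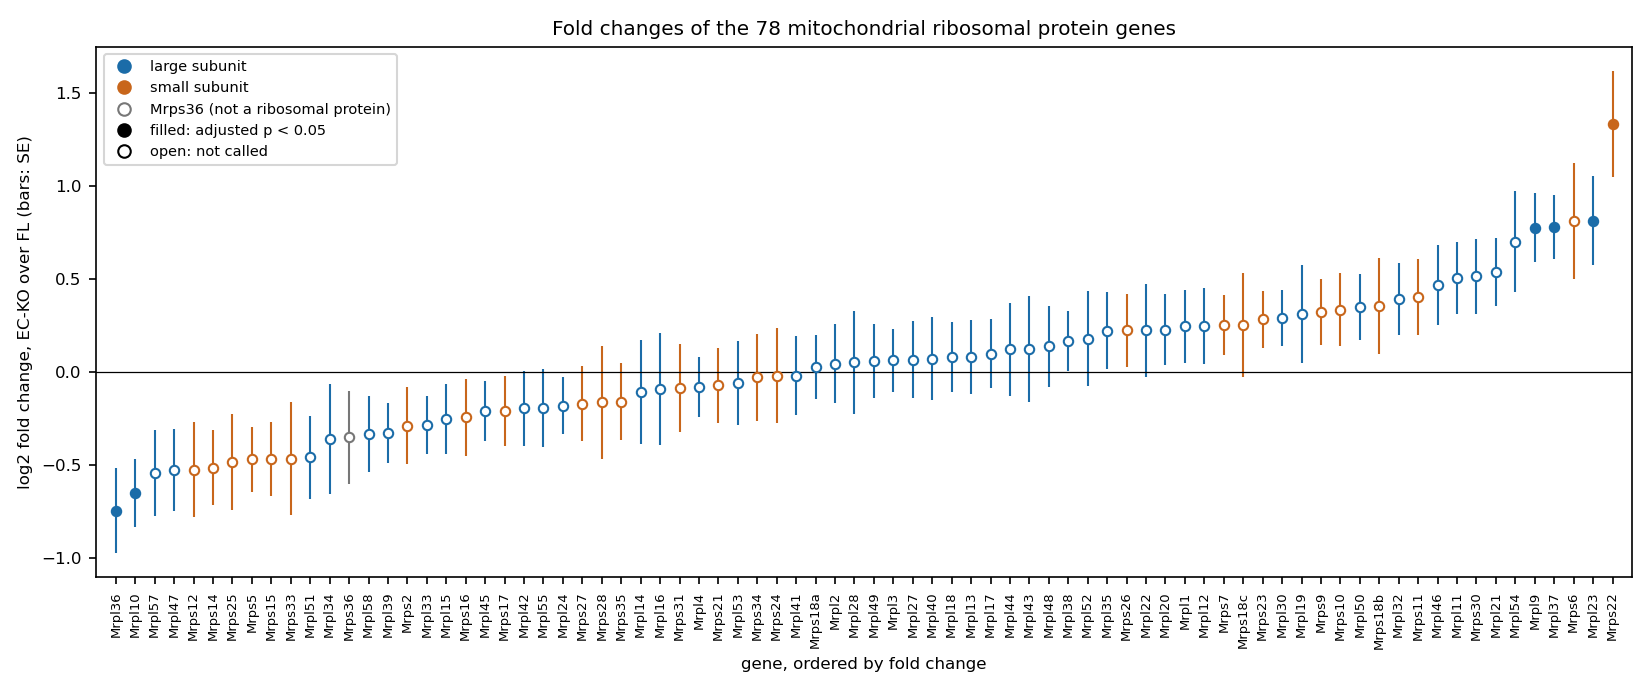
Log2 fold change of each of the 78 mitochondrial ribosomal protein genes, EC-KO over FL, ordered by size, with standard errors as bars and colour for the subunit. Filled points are the 6 genes called at an adjusted p below 0.05. Mrps22 stands at 1.33, and 63 genes lie within 0.5 of 0.

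Called genes were few in both subunits. In the large subunit 3 of 51 genes rose and 2 fell (9.8%), with a median log2 fold change of 0.07. In the small subunit 1 of 26 rose and 0 fell (3.85%), with a median of -0.08. Among the 46 proteins with bacterial homologues 2 rose and 2 fell (8.7%), and among the 31 proteins particular to mitochondria 2 rose and 0 fell (6.45%). Each of these shares lay below the 27.1% of all tested genes (13.5% in each direction). Both of these classes had a median of 0.06. The split follows the systematic names of ribosomal proteins, which place Mrps18a and Mrps18b, although paralogues of Mrps18c, among the proteins particular to mitochondria. The 16 small-subunit proteins with bacterial homologues, which include the decoding-centre proteins, had a median of -0.12. Of these 0 were called by edgeR, 4 had an unadjusted p below 0.05, and DESeq2 called 1 and limma-voom 0.

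The EC-KO libraries ranged more widely than the FL libraries in the family's median. The median of the 78 genes, relative to the FL mean on the log2 scale, was 0.02, -0.01 and 0.02 in FL 1, FL 2 and FL 3 and 0.12, 0.04 and -0.14 in EC-KO 1, EC-KO 2 and EC-KO 3. EC-KO 1 held the highest of the 3 EC-KO values for 37 of the 78 genes, and EC-KO 3 held the lowest for 40. EC-KO 2 held the highest for 30 and the lowest for 31. Hence the family as a whole was slightly above the FL mean in EC-KO 1 and slightly below it in EC-KO 3. For all tested genes in the family's range of levels the medians were -0.03, -0.05 and -0.07 in EC-KO 1, EC-KO 2 and EC-KO 3.

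**Figure D2:**
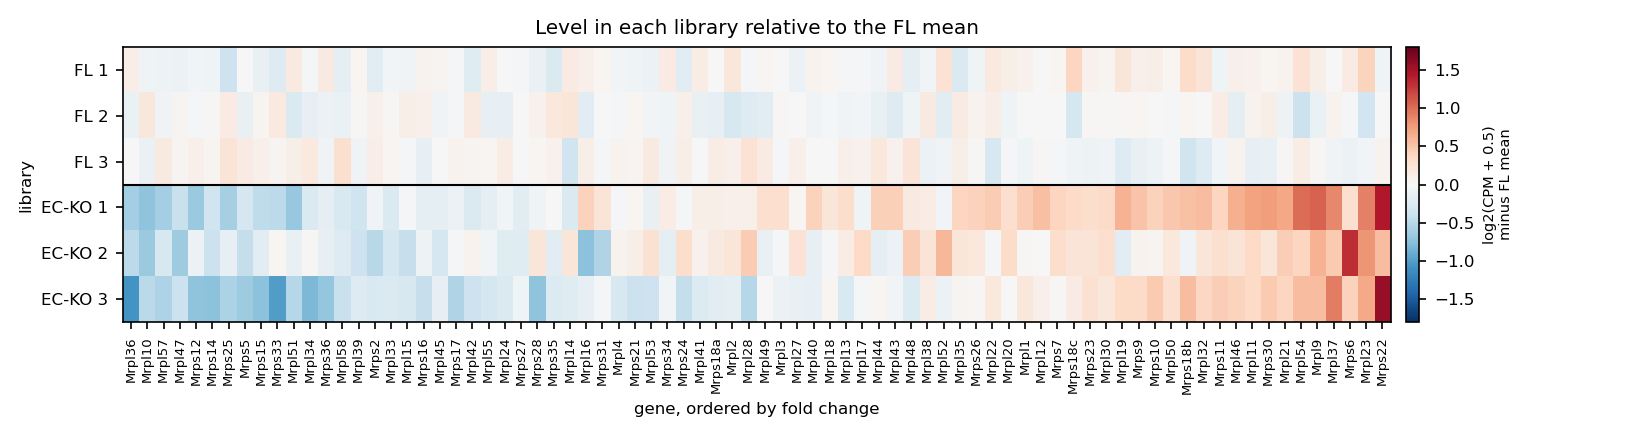
Level of each of the 78 genes (columns, ordered by fold change) in each of the 6 libraries (rows), as log2(CPM + 0.5) minus the mean of the FL libraries. Colour deepens at both ends of the order in all 3 EC-KO rows, and stays pale over the middle of the map, which follows largely from the ordering by fold change.

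The number of calls moved with single libraries, and the called share of the family was below that of all genes under each alternative run. Leaving out FL 3 left 1 of 78 genes called (13.2% of all tested genes), and leaving out FL 2 or EC-KO 1 left 2 (13.6% and 14.7%). Leaving out EC-KO 3 left 4 (17.8%) and leaving out FL 1 left 5 (22.5%). Without EC-KO 2, the library that stood apart in its markers, 14 of 78 genes were called (17.9%), against 35.1% of all tested genes. Of the genes gained in that fit, Mrps30, Mrpl54 and Mrpl21 were higher, and Mrps12, Mrps15, Mrps5, Mrps33 and Mrpl51 were lower. They were named after their values were seen. Without both FL 1 and EC-KO 2, 15 genes were called (19.2%, against 39.8%), and DESeq2 called 8 with all libraries (10.3%, against 33.4%). At a threshold of 0.01 edgeR called 0 genes (10.9% of all genes), limma-voom 0 and DESeq2 5, and a threshold of 0.1 gave 13 (16.7%, against 37.5%).

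The 6 called genes are described with the stretch from 100 bases before to 50 bases after the annotated transcription start, taken from RefSeq on GRCm38.p6 and written 5′ to 3′ on the gene's strand. These stretches are shown since they are the shared kind of regulatory region of the genes that carry the differences. Capitals mark exact matches to the motifs of 4 factors or factor families of housekeeping promoters: the palindrome bound by NRF1 (the 10 capitals in the stretch of Mrpl9), CCGGAAG for ETS factors, AAGATGGCG for YY1 and CACGTG, the E-box. Both strands were searched, so that CTTCCGG and CGCCATCTT count as matches, and no other base is marked.
Genes that rose in EC-KO:
Mrps22, chr9:98601630-98601779, minus strand: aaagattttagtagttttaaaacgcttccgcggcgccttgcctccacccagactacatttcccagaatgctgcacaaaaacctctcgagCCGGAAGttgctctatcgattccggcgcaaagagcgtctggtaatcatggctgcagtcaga
Mrpl37, chr4:107066817-107066966, minus strand: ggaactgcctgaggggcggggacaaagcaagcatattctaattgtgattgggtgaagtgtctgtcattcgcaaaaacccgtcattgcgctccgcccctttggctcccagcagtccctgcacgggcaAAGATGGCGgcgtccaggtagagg
Mrpl9, chr3:94443236-94443385, plus strand: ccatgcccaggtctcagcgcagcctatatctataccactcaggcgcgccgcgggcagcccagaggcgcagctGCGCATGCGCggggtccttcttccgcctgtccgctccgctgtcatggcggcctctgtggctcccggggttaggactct
Mrpl23, chr7:142532932-142533081, plus strand: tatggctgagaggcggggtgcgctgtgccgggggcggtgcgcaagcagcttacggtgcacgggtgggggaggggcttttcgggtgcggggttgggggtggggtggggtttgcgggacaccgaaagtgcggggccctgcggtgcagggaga
Genes that fell in EC-KO:
Mrpl10, chr11:97041482-97041631, plus strand: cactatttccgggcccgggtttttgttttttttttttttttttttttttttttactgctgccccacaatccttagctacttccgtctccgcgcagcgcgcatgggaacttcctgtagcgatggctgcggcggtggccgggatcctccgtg
Mrpl36, chr13:73330909-73331058, plus strand: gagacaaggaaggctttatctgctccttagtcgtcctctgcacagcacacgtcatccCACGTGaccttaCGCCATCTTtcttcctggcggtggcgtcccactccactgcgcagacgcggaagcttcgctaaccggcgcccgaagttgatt
Mrps22 held the ETS motif, Mrpl9 the NRF1 motif and Mrpl37 the YY1 motif just after its start, whereas Mrpl36 held an E-box and the YY1 motif. Mrpl23 and Mrpl10 held none of the 4 in this stretch.

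In the longer RefSeq promoters (250 bases before to 50 after the start), 69 of the 78 genes had an entry. The ETS motif was in 26 of these 69 genes (37.7%), compared with 9.93% of all 27025 genes with an entry and 17.4% of the 12455 tested genes. The YY1 motif was in 8 (11.6%, against 1.64% and 2.98%) and the NRF1 motif in 3 (4.35%, against 1.07% and 1.99%). The E-box was in 5 (7.25%, against 8.09% and 10.8%). The family's promoters thus held the ETS, YY1 and NRF1 letters at higher shares than promoters at large, a description for which no test was made. Family members with the ETS motif had a median log2 fold change of 0.06 and those without it 0.05. The 3 members with the NRF1 motif, Mrpl39 at -0.33, Mrpl32 at 0.39 and Mrpl9 at 0.78, had a median of 0.39 and those without it 0.06. For the E-box the medians were 0.23 (5 members) and 0.06, and for the YY1 motif 0.00 (8 members) and 0.06. Members with the E-box and members with the YY1 motif both included Mrpl36 (-0.75) and Mrpl37 (0.78), which went in opposite directions. No test of these medians was made.

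Mrps22, a small-subunit protein particular to mitochondria, had the largest change in the family. It stood at 4.47, 4.77 and 4.96 CPM in FL and at 13.7, 7.21 and 14.9 CPM in EC-KO. All EC-KO libraries were above all FL libraries, and EC-KO 2 was the lowest of its group. The mean rose from 4.73 ± 0.247 CPM to 11.9 ± 4.15 CPM (SD over 3 libraries), or by 1.33 ± 0.28 on the log2 scale (adjusted p = 0.010, edgeR). Mrps22 was the 1 gene of the family that was called after leaving out any 1 library.

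Mrpl37, a large-subunit protein particular to mitochondria, rose from 25.8, 26.7 and 24.5 CPM to 47.3, 35.9 and 49.1 CPM. The FL libraries were tightly grouped and EC-KO 2 was again the lowest of the EC-KO libraries. The log2 fold change was 0.78 ± 0.17 (adjusted p = 0.0112, edgeR), and without FL 3 it was 0.71 with an adjusted p of 0.0618. Mrpl9, a large-subunit protein with a bacterial homologue, stood at 21.0, 17.97 and 19.9 CPM in FL and at 41.4, 30.5 and 28.9 CPM in EC-KO. EC-KO 1 was the highest, and the groups did not overlap. Its log2 fold change of 0.78 ± 0.19 (adjusted p = 0.0164, edgeR) was no longer called without FL 2 (0.0773), FL 3 (0.0692) or EC-KO 1 (0.0640).

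Mrpl23 lies at the exit of the tunnel through which the new peptide leaves the large subunit. It stood at 8.15, 4.64 and 5.82 CPM in FL and at 11.7, 10.9 and 10.0 CPM in EC-KO, with the wider spread in FL. The log2 fold change was 0.81 ± 0.24 (adjusted p = 0.0355, edgeR), and the adjusted p rose to 0.131 without FL 2, to 0.133 without FL 3, to 0.113 without EC-KO 1 and to 0.0660 without EC-KO 3. A few other proteins at or near the exit, not a full list and in part chosen after their values were seen, were not called: Mrpl22 was at 0.22, Mrpl24 at -0.18 and Mrpl47 at -0.53 (adjusted p = 0.104). Mrpl45, which anchors the ribosome at the inner membrane, was at -0.21.

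Mrpl10 and Mrpl36 were the 2 genes that fell. Mrpl10, the protein that holds the factor-binding stalk to the large subunit, stood at 16.0, 19.6 and 15.6 CPM in FL and at 10.1, 10.5 and 11.97 CPM in EC-KO. The groups were well apart, and the log2 fold change was -0.65 ± 0.18 (adjusted p = 0.0286, edgeR). The call was lost without FL 2 (0.121), FL 3 (0.0590) or EC-KO 1 (0.0965) and with scaling by library size alone (0.0560). Mrpl11 and Mrpl12 of the stalk region, named after their values were seen, had positive values and were not called, Mrpl11 at 0.50 (10.2, 10.0 and 8.65 against 16.1, 12.4 and 12.4 CPM, adjusted p = 0.0809) and Mrpl12, the stalk protein itself, at 0.25 (adjusted p = 0.390). The differences between these genes were not tested.

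Mrpl36, a small protein of the large subunit with a bacterial homologue, stood at 10.5, 8.77 and 9.56 CPM in FL and at 6.12, 6.74 and 4.30 CPM in EC-KO. The groups did not overlap, and the log2 fold change was -0.75 ± 0.23 (adjusted p = 0.0392, edgeR). This was the least stable of the 6 calls. The adjusted p was 0.0886, 0.0813 and 0.0988 on leaving out the 3 FL libraries in turn, 0.0886 with EC-KO 1 removed, 0.114 with EC-KO 3 removed, and 0.0531 with upper-quartile scaling.

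**Figure D3:**
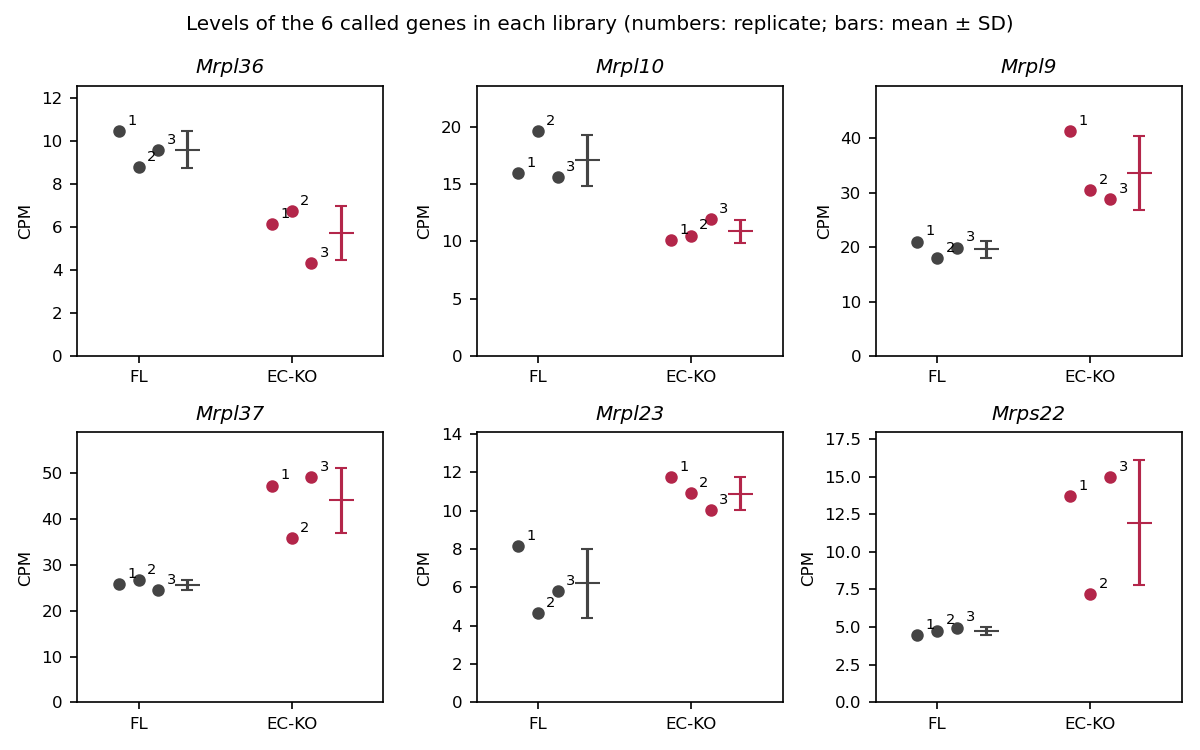
CPM of the 6 called genes in each library, with the replicate number beside each point and the mean ± SD of each group as a bar. In each panel the 3 EC-KO points lie on 1 side of the 3 FL points, and EC-KO 2 lies nearest to FL for Mrps22, Mrpl37 and Mrpl36.

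Several further genes did not overlap between the groups but missed the threshold. They are described after their values were seen. In the large subunit, Mrpl21, a protein with a bacterial homologue, was at 9.55, 8.56 and 9.23 CPM in FL and at 15.1, 12.6 and 12.03 CPM in EC-KO, a log2 fold change of 0.54 (adjusted p = 0.0567 with edgeR and 0.0287 with DESeq2). Mrps30, which despite its name belongs to the large subunit of the mammalian mitochondrial ribosome, was at 0.51 (0.0862) and Mrpl54 at 0.70 (0.0840). In the small subunit, Mrps5 was at -0.47 (21.8, 20.0 and 24.4 against 17.7, 16.2 and 13.9 CPM, adjusted p = 0.0749), Mrps14 at -0.51 (0.0874) and Mrps15 at -0.47 (0.110). Mrps12, the decoding-centre protein, was at -0.52 (5.34, 5.38 and 5.94 against 3.32, 5.11 and 3.15 CPM, adjusted p = 0.157). In EC-KO 2, Mrps12 was close to the FL libraries, and without that library its log2 fold change was -0.81 (adjusted p = 0.0254).

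Mrps6 had the second largest positive change of the small subunit, with 5.04, 4.40 and 4.14 CPM in FL and 5.66, 12.04 and 6.15 CPM in EC-KO. EC-KO 2 was well above the other EC-KO libraries, which were just above FL. Its log2 fold change was 0.81 (adjusted p = 0.0819 with edgeR, 0.0482 with DESeq2). Mrps6 shares 159 exon bases (10.4% of its exons) on the same strand with Slc5a3, the gene of a myo-inositol transporter. Slc5a3 was at 28.2, 24.3 and 19.8 CPM in FL and at 29.3, 47.1 and 40.3 CPM in EC-KO, and it too was highest in EC-KO 2. Its log2 fold change of 0.69 was called (adjusted p = 0.0441), but was lost on leaving out each FL library (0.0576, 0.124 and 0.184 for FL 1, FL 2 and FL 3), EC-KO 2 (0.0784) or EC-KO 3 (0.111), and without the mitochondrially encoded genes (0.0511).

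Mrpl2, Mrpl3, Mrpl16 and Mrpl27, chosen after their values were seen, lie near the peptidyl transferase centre, where peptide bonds are made. None of these 4 was called. They had log2 fold changes between -0.09 and 0.07, with standard errors of 0.17 to 0.30, and each changed sign under at least 1 alternative. The 3 paralogues of the Mrps18 family did not pass the test. Mrps18a, which sits in the large subunit, was at 21.2, 18.9 and 23.1 CPM in FL and at 22.5, 23.6 and 18.3 CPM in EC-KO, a log2 fold change of 0.03 that was negative on removal of FL 1, of FL 2, of EC-KO 1 or of EC-KO 2. Mrps18b and Mrps18c, which take distinct places in the small subunit, were at 0.36 (adjusted p = 0.329) and 0.25 (0.532). Mrps36, the gene that is not a ribosomal protein, was at -0.35 (0.326), with EC-KO values of 4.68, 4.77 and 3.09 CPM below FL values of 6.03, 4.89 and 5.09 CPM.

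Levels between genes are compared as CPM per kilobase of exon in FL. In the large subunit Mrpl24 was highest at 19.8 CPM per kilobase, before Mrpl4 at 12.7 and Mrpl53 at 12.3, and Mrpl47, Mrpl23 and Mrpl19 were lowest at 1.22, 1.27 and 1.30. In the small subunit Mrps21 was highest at 14.6, and Mrps35, Mrps25 and Mrps10 were lowest at 1.04, 1.05 and 1.13. The exon length is that of all annotated exons together, so that a gene with long, rarely used exons is understated. Of the high genes, Mrpl24 was at -0.18, Mrpl4 at -0.08 and Mrps21 at -0.07 on the log2 fold scale, and none was called. Exons of 33 members overlap those of another gene, and 14 share more than 10% of their exon bases with a tested gene. Mrps25 shares 69.8% of its exon bases with Nr2c2 and Mrps34 shares 63.4% with Mapk8ip3, both on the opposite strand. Since the sources used here do not state whether counting used strand, the values of these genes are uncertain. Of the 6 called genes only Mrpl36 overlaps a tested gene, by 30 exon bases (2.58%) with Ndufs6.

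Many mitochondrial ribosomal protein genes start close to a neighbour that is read in the other direction. Whether such genes share a promoter was not tested, and the share of all genes with such a neighbour was not counted. By the gene coordinates deposited with the counts, 35 of the 78 genes had a tested neighbour on the opposite strand whose 5′ end lay within 1000 bases. This made 34 distinct pairs. Both genes of a pair had the same sign of fold change in 22 of the 34 pairs, and in 0 pairs were both called. Over the pairs the Pearson correlation of the log2 fold changes was -0.20 and the Spearman correlation -0.06, given as a description since all values come from the same 6 libraries.

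The called genes differed in sign from these neighbours, but the differences within pairs were not tested. Distances are between the 5′ ends, and the genes of a pair can overlap. Mrpl36, at -0.75, starts 29 bases from Ndufs6, a complex I subunit, at 0.21 (adjusted p = 0.531), and shares 30 exon bases with it. Mrpl37, at 0.78, lies 120 bases from Cyb5rl at -0.25 (0.451), and Mrpl10, at -0.65, lies 153 bases from Lrrc46 at 0.76 (0.199). In 2 pairs the neighbour was called. Ska3, a kinetochore protein gene that starts 49 bases from Mrpl57, rose by 1.49 ± 0.27 (adjusted p = 0.00482, edgeR). Its means were low, at 1.51 CPM in FL and 4.25 CPM in EC-KO. Mrpl57 itself, at 4.62, 4.71 and 5.57 CPM in FL and at 3.06, 3.95 and 3.22 CPM in EC-KO, was at -0.54 (0.112). Tmem63b, which starts 583 bases from Mrpl14 and shares 106 exon bases with it, rose by 0.52 (0.0380). Mrpl14 itself was at -0.11 (0.803). The call for Tmem63b was lost on leaving out each FL library (0.0883, 0.145 and 0.138 for FL 1, FL 2 and FL 3), EC-KO 1 (0.0512) or EC-KO 3 (0.146), and with no filter on low counts (0.0779). Mrpl46 and Mrps11, a large- and a small-subunit gene that start 412 bases from each other, were at 0.47 (0.135) and 0.40 (0.173).

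**Figure D4:**
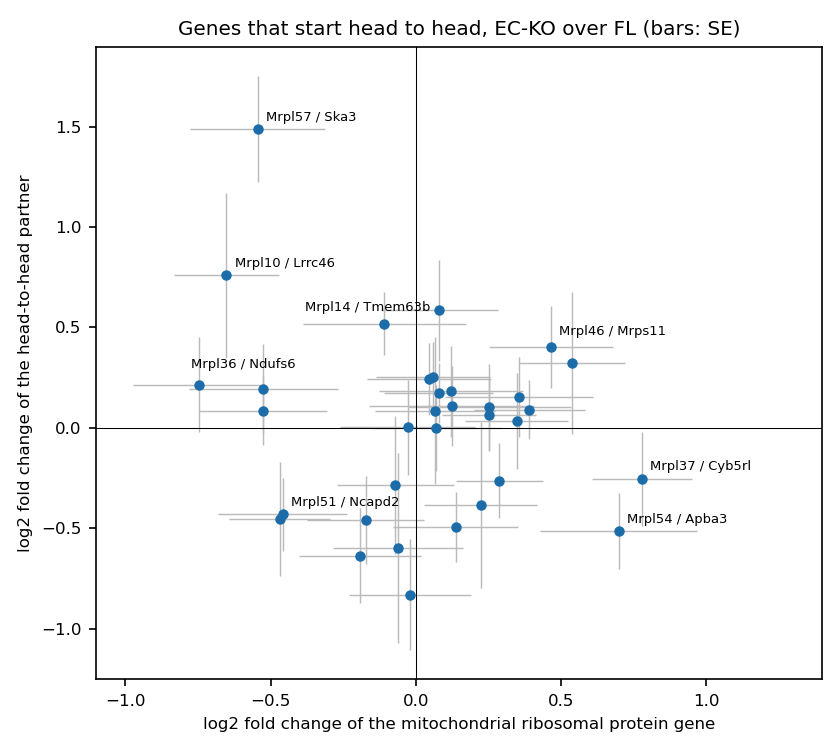
Log2 fold change of each mitochondrial ribosomal protein gene (horizontal axis) and of the gene that starts head to head with it (vertical axis) in 34 pairs, EC-KO over FL, with standard errors as bars. Mrpl57 and Mrpl10 lie at the upper left and Mrpl37 and Mrpl54 at the lower right, where the 2 genes of a pair differ in sign.

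The other proteins of the mitochondrial ribosome, whose symbols do not follow the rule, held no called gene. Of Dap3, Ptcd3, Gadd45gip1, Aurkaip1 and Chchd1, 0 of 5 were called by edgeR, limma-voom or DESeq2. With edgeR 27.1% of all tested genes were called. An unadjusted p below 0.05 was found for 0 of the 5 with edgeR, against 40.6% of all tested genes, and for 1 with DESeq2. A list of 5 genes is small for a comparison with these shares. Their median log2 fold change was 0.33. Dap3, a small-subunit GTP-binding protein, was at 34.9 ± 1.18 CPM in FL and 43.9 ± 3.52 CPM in EC-KO, and the groups did not overlap. Its log2 fold change was 0.33 (adjusted p = 0.124, unadjusted p = 0.0508, edgeR).

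Of 28 factors that assemble the mitochondrial ribosome 1 rose and 4 fell (17.9%, below the 27.1% of all tested genes), with a median log2 fold change of -0.07. Nsun4, an RNA methyltransferase of ribosome assembly, rose from 15.2, 10.7 and 11.6 CPM to 22.6, 19.1 and 20.9 CPM, a log2 fold change of 0.74 ± 0.19 (adjusted p = 0.0216, edgeR). Mtg2, a GTPase of large-subunit assembly, fell from 9.17, 11.2 and 11.2 CPM to 6.93, 4.99 and 5.29 CPM (-0.88 ± 0.21, 0.0174). Mettl15, a methyltransferase of the small-subunit RNA, fell from 5.00, 3.18 and 6.76 CPM to 2.57, 1.94 and 1.98 CPM (-1.20 ± 0.32, 0.0245). The groups did not overlap for any of these 3 genes. Mtg1, a GTPase, and Ddx28, a DEAD-box helicase, fell by 0.76 (0.0261) and 0.80 (0.0333) on the log2 scale.

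These 5 calls were sensitive to single libraries. The rise of Nsun4 was not called without FL 2 (0.0985), without FL 3 (0.102), with EC-KO 1 removed (0.0793) or with EC-KO 3 removed (0.0594), so that 0 factors rose in these fits. The count of factors that fell was then 1, 0, 1 and 0. Mtg2 lost its call without FL 2 (0.0677), FL 3 (0.0625) or EC-KO 3 (0.0542), and Mettl15 without FL 3 (0.0985), EC-KO 1 (0.0529) or EC-KO 3 (0.0677). Mtg1 lost it on removal of each FL library (0.0606, 0.0715 and 0.0693), of EC-KO 1 (0.0642) or of EC-KO 3 (0.0800). Ddx28 lost it on removal of FL 2 (0.127), of FL 3 (0.0966), of EC-KO 1 (0.0856) or of EC-KO 3 (0.0592), and with library-size scaling (0.0573).

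Among the translation factors of mitochondria all calls were in 1 direction. Of 15 factors tested 0 rose and 4 fell, with a median log2 fold change of -0.36. The called share was 26.7%, against 27.1% of all tested genes in either direction and 13.5% called lower. In EC-KO 7 factors (46.7%) lay entirely below FL and 0 entirely above. Of all 18562 tested genes 4227 lay entirely below FL and 4196 entirely above, together 45.4%. That 45.4% counts both directions, whereas the 7 factors lie in 1. No test of these shares was made. Gfm2, the elongation factor that recycles ribosomes, fell from 18.6, 22.5 and 19.8 CPM to 10.5, 12.7 and 11.7 CPM, a log2 fold change of -0.80 ± 0.17 (adjusted p = 0.0106, edgeR). Gfm1, the translocation factor, fell from 33.4, 37.1 and 33.4 CPM to 22.3, 20.8 and 23.3 CPM (-0.65 ± 0.15, 0.0143). The 2 groups were far apart for both genes. Mtif2, the initiation factor, fell by 0.64 (0.0249), and Taco1, a translational activator of cytochrome oxidase subunit I, fell by 0.95 (0.0450).

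Without FL 2, 0 of these 4 translation factors were called, without EC-KO 1, 1 was called, and without FL 3, 2 were called. Gfm2 was lost without FL 2 alone (0.0540), and Gfm1 without FL 2 (0.0694) or EC-KO 1 (0.0504). Mtif2 was lost on removal of FL 2 (0.0897), of FL 3 (0.0926), of EC-KO 1 (0.0744) or of EC-KO 3 (0.0593). Taco1 was lost on removal of each FL library (0.0962, 0.0991 and 0.0933), of EC-KO 1 (0.107) or of EC-KO 2 (0.0585), and with upper-quartile (0.0635) or library-size scaling (0.0803).

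The RNAs of the mitochondrial ribosome and the mRNAs that it translates were counted in the same libraries, and no protein was measured. The small-subunit RNA mt-Rnr1 was at 457, 364 and 380 CPM in FL and at 1368, 1650 and 747 CPM in EC-KO, with every EC-KO library above every FL library. Its log2 fold change was 1.65 ± 0.28 (adjusted p = 0.00430, edgeR), and it kept its call with each library left out in turn. The large-subunit RNA mt-Rnr2 was at 768, 685 and 706 CPM in FL and at 1241, 1121 and 649 CPM in EC-KO, so the groups overlapped (0.48, adjusted p = 0.174). Both RNAs were counted in libraries selected for polyadenylated RNA, which hold only a part of them. Of the mRNAs for the 13 proteins encoded by mitochondrial DNA 0 were called by edgeR or limma-voom and 1 by DESeq2. An unadjusted p below 0.05 (edgeR) was found for 4. Their log2 fold changes ran from 0.12 to 0.72 with a median of 0.52, and mt-Co1 was at 0.21 (adjusted p = 0.535). The FL means ran from 0.60 CPM for mt-Atp8 to 16067 CPM for mt-Co1, and mt-Nd4l, whose value is the median, was at 1.64 CPM. Also low were mt-Nd3 (FL mean 4.06 CPM), mt-Co2 (7.74), mt-Atp6 (7.93) and mt-Co3 (10.8, 7.55 and 8.62 CPM in the FL libraries). The remaining mRNAs had FL means of 209 CPM (mt-Nd6) or more. Medians and the non-overlap share of the 13 mRNAs thus rest in part on these low values. Whether reads of the low genes were lost in counting was not tested. The groups did not overlap for 2 of the 13 (15.4%, against 45.4% of all tested genes). In the median of the 13 relative to the FL mean (log2), FL 1 (0.27) lay above EC-KO 3 (0.14) and below EC-KO 1 (0.51) and EC-KO 2 (0.59).

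Genes of the cytosolic ribosome and of complex I gave a scale for these values. All 76 cytosolic ribosomal protein genes had positive log2 fold changes, from 0.12 to 0.65 with a median of 0.37 and an SD of 0.12 between genes. Of these, 2 were called (2.63%, against 27.1% of all tested genes). The groups did not overlap for 33 of the 76 (43.4%), and EC-KO was higher in all 33. Of all 18562 tested genes 45.4% did not overlap, 4196 with EC-KO higher and 4227 with EC-KO lower. In contrast to the cytosolic genes, the mitochondrial family had 42 positive and 36 negative values and an SD of 0.39. The shift of the cytosolic genes was uneven between libraries. Relative to the FL mean (log2), their median was 0.19, -0.07 and -0.12 in FL 1, FL 2 and FL 3. It was 0.65, 0.20 and 0.22 in EC-KO 1, EC-KO 2 and EC-KO 3. Without EC-KO 1 their median log2 fold change was 0.20. The 39 tested nuclear genes of complex I had a median of 0.04 and an SD of 0.28, and 0 were called by edgeR or limma-voom and 1 by DESeq2 (2 at an unadjusted p below 0.05 with edgeR). No test of the difference between these families was made.

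**Figure D5:**
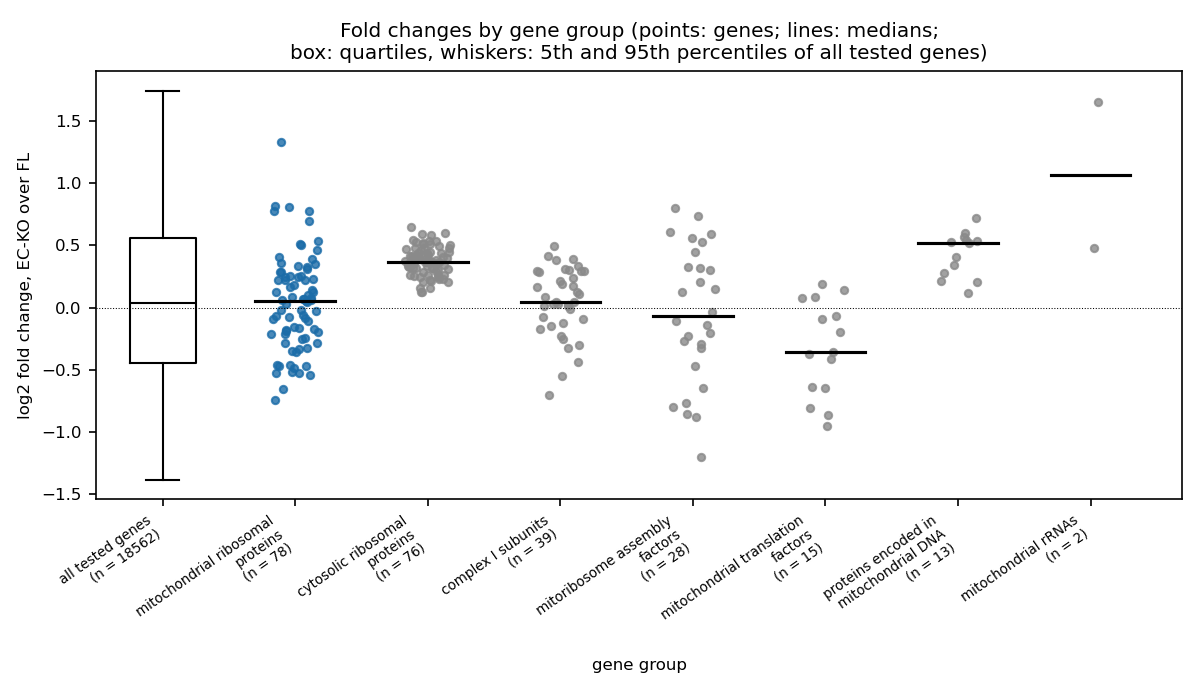
Log2 fold change, EC-KO over FL, by gene group, with 1 point per gene, a line at each median, and a box and whiskers for all tested genes. The cytosolic ribosomal proteins lie in a narrow band around 0.37, the mitochondrial ribosomal proteins spread on both sides of 0, and most translation factors lie below 0.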

How the data were processed

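The deposited values are counts per gene and library, whole numbers per the file headers. Reads were aligned with STAR 2.7.10b and counted with featureCounts 2.0.3, per the submitters' processing notes, which name mm10. Only 2.8% of gene starts in the deposited table equal those of GENCODE on GRCm38, so the table's own coordinates are not printed. Gene lengths, distances between gene starts and shared exon bases come from the deposited table. Libraries had 72.4% to 77.8% of reads assigned and 9.1% to 11.5% multimapping. The table held 2 per-sample columns that match no sample label, which were not used.

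The 6 libraries were grouped by their genotype labels. Genes kept by edgeR's filterByExpr were scaled by TMM and tested with edgeR 4.0.16 (R 4.3.3; robust quasi-likelihood fit, no covariate), with Benjamini-Hochberg adjustment over all 18562 genes. The common biological coefficient of variation was 25.5%. The SE of a log2 fold change was derived from the test statistic, so it holds no precision separate from the p. CPM values use the TMM-scaled library sizes. Alternatives included DESeq2 1.42.0, limma-voom (limma 3.58.1), other scalings, filters and thresholds, a replicate block, and leaving out each library.

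The members and lists were chosen with earlier results of these data known. The rule for named genes took every called member, the 3 highest and lowest per kilobase in each subunit, the Mrps18 paralogues, Mrps36, the 2 called genes of smallest p per direction in each list, and head-to-head pairs with a called gene. Further genes were named after their values were seen. Of the translation factors, Mtrfr had no entry and Slirp was not tested.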

Additional observations from a re-analysis of the deposited data

How the results depend on the processing

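The family's median log2 fold change stayed between -0.07 and 0.13 under all alternatives run, a shift within the spread of the EC-KO libraries, and was negative without FL 2, EC-KO 1 or EC-KO 2. Against 4 members called higher and 2 lower with the reported settings, leaving out 1 library gave 1 to 7 higher and 0 to 7 lower, and leaving out FL 1 and EC-KO 2 together gave 9 and 6. A threshold of 0.01 gave 0 and 0 (10.9% of all genes), although 16 members had an unadjusted p below 0.05, and a threshold of 0.1 gave 9 and 4. Members called lower numbered 1 with upper-quartile scaling, 1 with library-size scaling and 0 with a replicate block. These 2 scalings moved the median of all genes to 0.11 and 0.12. Assembly factors called higher numbered 2 with upper-quartile scaling, 2 with library-size scaling, 2 with a minimum of 1 CPM in 3 libraries, 4 without FL 1 and EC-KO 2, 3 with DESeq2, 0 at a threshold of 0.01, 3 at a threshold of 0.1 and 0 to 2 with 1 library left out. Assembly factors called lower numbered 3 with library-size scaling, 2 with the replicate block, 5 at a threshold of 0.1, 0 at a threshold of 0.01 and 0 to 4 with 1 library left out. Translation factors called lower numbered 3 with upper-quartile scaling, 3 with library-size scaling, 2 with the replicate block, 6 at a threshold of 0.1, 0 at a threshold of 0.01 and 0 to 4 with 1 library left out.

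Replicate numbers were shared by the groups, but the deviations of same-numbered libraries from their group means had correlations of 0.0494, 0.0697 and -0.1812, and not every library correlated best with its own number. The numbers were therefore not taken as a pairing. With the replicate block 4 members were called, against 20.7% of all genes. Mrpl10 (adjusted p = 0.0718) and Mrpl36 (0.0690) were not called in that fit (edgeR), nor were Mtg1 (0.0690), Ddx28 (0.0762), Mtif2 (0.0687), Taco1 (0.0690), Tmem63b (0.0915) and Slc5a3 (0.0803).

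Some members near 0 changed sign. With upper-quartile scaling the log2 fold change of Mrpl53 was 0.0115 and that of Mrps21 0.00221. With library-size scaling Mrpl53 was at 0.0139, Mrpl4 at 0.00182, Mrps21 at 0.00856 and Mrpl16 at 0.0114. Without FL 1 and EC-KO 2, Mrps18a was at -0.0754, Mrpl16 at 0.18 and Mrpl27 at -0.14. With 1 library left out, the range was -0.297 to 0.0700 for Mrpl53, -0.19 to 0.00273 for Mrpl4, -0.20 to 0.0598 for Mrps21, -0.0760 to 0.12 for Mrps18a, -0.33 to 0.00905 for Mrpl14, -0.0989 to 0.13 for Mrpl2, -0.0803 to 0.13 for Mrpl3, -0.45 to 0.13 for Mrpl16 and -0.0814 to 0.14 for Mrpl27. The causes were not tested. Counting error limits most the genes with few counts.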
